A study of Homo sapiens with 6 samples.

Results

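The NF-kappaB genes described here were 10 genes chosen by symbol, out of the 58735 genes listed in a table of gene expression in HCT116, an epithelial cell line from a human colorectal carcinoma. They were the subunit genes NFKB1, NFKB2, RELA and RELB, the inhibitor gene NFKBIA, the ubiquitin-editing genes TNFAIP3 and CYLD, and the target genes BIRC3, CXCL1 and CXCL8. All 10 were found in the table, each as a single row, and all 10 had a mean of at least 1 FPKM (fragments scaled to gene length and to the fragments of the library), the level required for testing. RNA-seq was performed on 6 libraries, 3 from control-transfected cells (CTR) and 3 from cells transfected with miR-8485 mimics, which are short synthetic RNAs that copy a mature miRNA. The mimics were used at 50 nM, and the cells were collected 48 h after transfection. Both groups were wild type by their labels and came from a single cell line, and the libraries were described as independent biological replicates. The sequence and dose of the control transfection were not given in the sources used here. The comparison of miR-8485 with CTR addressed which genes change when this miRNA is raised in these cells.

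NF-kappaB is a family of transcription factors that act as dimers. In resting cells the dimers are held in the cytoplasm by IkB proteins, of which the product of NFKBIA is the best studied. Receptors for TNF and interleukins, through ubiquitin chains and the IKK kinases, lead to the destruction of IkB, and the freed dimers enter the nucleus and switch on genes for chemokines, survival proteins and their own inhibitors, NFKBIA and TNFAIP3 among them. CYLD and the product of TNFAIP3 remove or edit the ubiquitin chains and so restrain the pathway. In the intestinal epithelium the pathway is known for its part in inflammation and cell survival.

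The sequences that bear on these genes are shown first. The mimic, as listed in the supplementary methods of the study, is printed 5′ to 3′ with its seed, bases 2 to 8, in capitals. The seed pairs with TGTGTGT in a messenger RNA, and a 3′ UTR was searched for these letters on the sense strand, overlapping copies included. Of the 10 genes, CYLD alone held such letters in the 3′ UTR of its canonical transcript, in 5 runs with 8 copies. The longest run is shown with 4 bases on each side. The run is in capitals, and the position is that of GRCh38 (hg38) with the GENCODE release 44 annotation, inside the last exon of CYLD.
miR-8485 mimic: cACACACAcacacguau
CYLD, chr16:50799292-50799310, plus strand: tgtcTGTGTGTGTGTatat

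The promoters of the 4 genes that were downregulated are shown because NF-kappaB binds promoters at short sites known as kappaB sites. Each window runs from 250 bases before to 50 bases after the transcription start, as given by RefSeq for GRCh38.p14. The capitals mark matches, on either strand, to the kappaB consensus or to GGANTTTCC, a pair of motifs that overlap each other and were chosen after the promoters had been seen. Overlapping matches are merged into 1 run of capitals, which gives 2 runs each in NFKBIA and TNFAIP3 and 1 each in CXCL1 and CXCL8, and each sequence is written in the direction of transcription.
NFKBIA, chr14:35404700-35404999, minus strand: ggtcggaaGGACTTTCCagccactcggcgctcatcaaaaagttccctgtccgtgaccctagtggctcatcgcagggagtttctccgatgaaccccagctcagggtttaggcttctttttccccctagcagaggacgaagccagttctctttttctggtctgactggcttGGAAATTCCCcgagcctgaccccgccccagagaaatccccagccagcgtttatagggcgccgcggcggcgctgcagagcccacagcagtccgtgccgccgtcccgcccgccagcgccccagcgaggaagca
TNFAIP3, chr6:137867009-137867308, plus strand: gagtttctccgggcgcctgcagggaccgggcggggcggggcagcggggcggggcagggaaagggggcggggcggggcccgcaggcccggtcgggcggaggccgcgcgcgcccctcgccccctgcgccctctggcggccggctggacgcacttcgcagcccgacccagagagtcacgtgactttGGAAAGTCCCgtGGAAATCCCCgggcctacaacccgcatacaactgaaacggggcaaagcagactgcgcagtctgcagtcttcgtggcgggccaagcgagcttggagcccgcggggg
CXCL1, chr4:73869143-73869442, plus strand: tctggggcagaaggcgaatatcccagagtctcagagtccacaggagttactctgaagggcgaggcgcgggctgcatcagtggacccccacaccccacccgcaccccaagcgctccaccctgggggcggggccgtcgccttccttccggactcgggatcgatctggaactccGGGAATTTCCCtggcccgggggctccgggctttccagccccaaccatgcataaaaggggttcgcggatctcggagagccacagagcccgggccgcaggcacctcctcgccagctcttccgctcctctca
CXCL8, chr4:73740319-73740618, plus strand: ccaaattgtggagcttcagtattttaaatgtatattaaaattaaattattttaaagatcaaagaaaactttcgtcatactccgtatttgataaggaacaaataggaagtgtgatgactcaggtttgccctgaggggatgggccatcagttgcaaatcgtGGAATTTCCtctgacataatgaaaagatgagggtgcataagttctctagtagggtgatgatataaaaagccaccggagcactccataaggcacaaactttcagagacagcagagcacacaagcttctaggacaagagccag

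The libraries held between 17473874 and 18480047 fragments on listed genes, and 100% of the values above 0 in each library came out as whole fragments (tolerance 0.01 fragments), so the fragments behind each value are known. The chi-square per gene between a pair of libraries is near 1 when only sampling noise separates them. It was 7.74 to 9.60 for the pairs of CTR replicate 1 with the other CTR libraries, 2.68 to 3.67 for the other pairs within a group and 54.4 to 62.4 between groups. CTR replicate 1 thus stood apart from the other CTR libraries, and it had the highest CXCL8 and BIRC3 values of all 6. Of 8 epithelial markers, 6 were at 1 FPKM or above, while VIL1 and CEACAM5 were near 0. The summed level of the 8 was 2613 to 2838 FPKM in CTR and 1751 to 1838 in miR-8485, but they did not move together. The keratin genes KRT8, KRT18 and KRT19 were downregulated, CDX2 was upregulated from 16.0 to 28.2 FPKM on average, and EPCAM (135 and 130.3 FPKM) and CDH1 (19.7 and 19.0 FPKM) did not pass the test. Of 8 markers of blood, endothelial and stromal cells, 2 were at 0 and only COL1A1 was above 1 FPKM. The summed level of these 8 was 4.54 to 5.44 FPKM in CTR and 6.56 to 7.21 in miR-8485, of which COL1A1 made up 4.25 and 6.31 on average. The part of these shifts in the results was not tested. In bulk libraries, a smaller share of cells that express a gene cannot be told apart from less RNA per cell.

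Of the 10 genes, 4 were downregulated in miR-8485-transfected cells, namely NFKBIA, TNFAIP3, CXCL1 and CXCL8, 0 were upregulated and 6 did not pass the test. The 4 subunit genes and CYLD were among the 6 that did not pass. The test was limma on log2(FPKM + 0.1), two-sided, adjusted by Benjamini-Hochberg over the 12349 genes with a mean of at least 1 FPKM, and genes with an adjusted p under 0.05 are referred to as called. The level for testing was a mean over all 6 libraries. TNFAIP3 and CXCL1 reached it only through CTR, with miR-8485 means of 0.786 and 0.767 FPKM. Of all 12349 genes, 59.6% were called, 29.1% higher and 30.5% lower. The 6 libraries separated without overlap between the groups in 5 of the 10 genes and in 66.5% of all tested genes. The median log2 fold change was -0.17 over the 10 genes and -0.0041 over all tested genes. Rescaling the values to TPM moved the median of all tested genes to -0.12, a shift of -0.11, and turned 3593 higher and 3769 lower calls into 2613 and 4725. Relative to that shift, the log2 fold changes of NFKBIA and TNFAIP3 were -0.51 and -0.97 under TPM. TPM values were larger than the FPKM values here while the added 0.1 was kept, and the part of this was not tested.

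**Figure D1:**
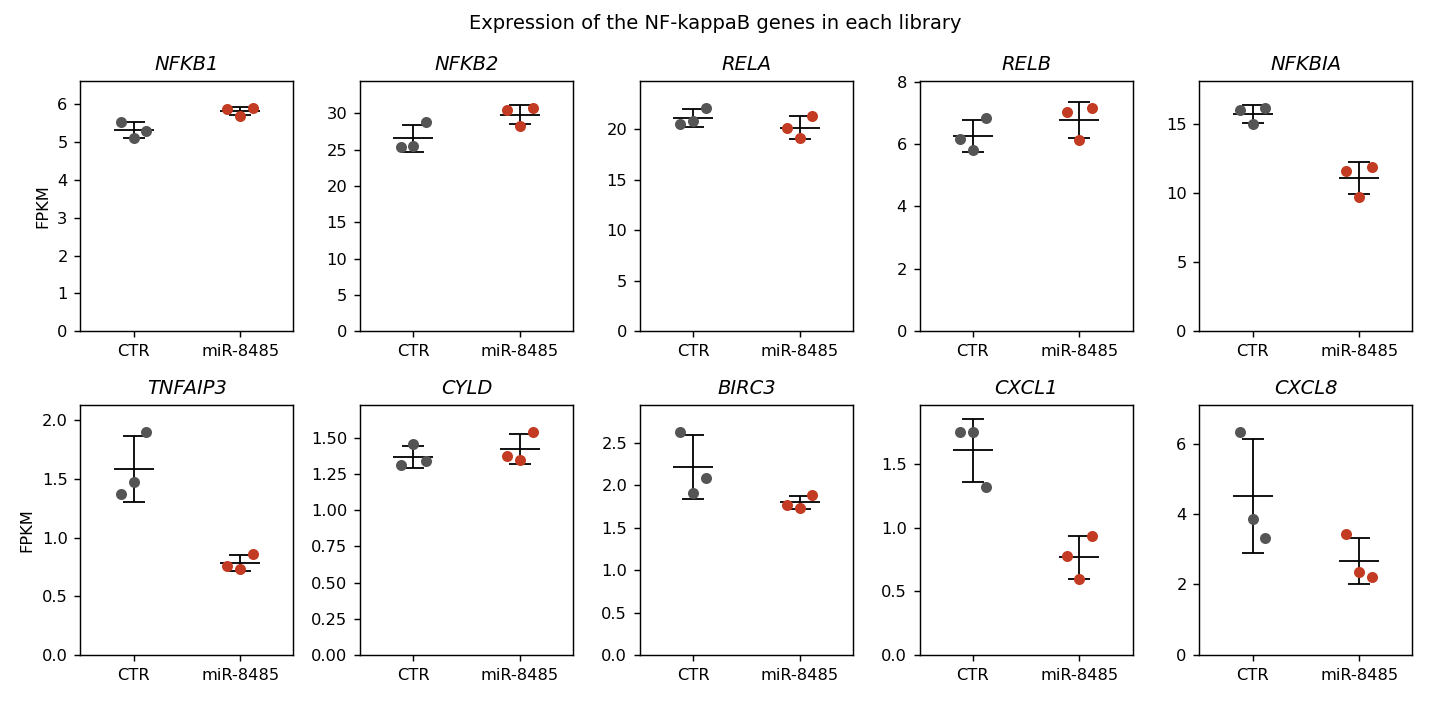
Expression in FPKM of the 10 genes, 1 panel per gene with its own axis from 0, in the 3 CTR and 3 miR-8485 libraries. Points are libraries, and bars are the mean with 1 SD (n = 3). The points of the groups are apart in NFKB1, NFKBIA, TNFAIP3, BIRC3 and CXCL1, and they overlap in the other 5 genes.

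Of the subunit genes, NFKB2 (chr10:102394110-102402529, plus strand, hg38), whose product is the subunit of the noncanonical pathway, stood at 25.4, 25.5 and 28.7 FPKM in CTR replicates 1 to 3 and at 30.4, 28.3 and 30.7 FPKM in miR-8485 replicates 1 to 3. Its lowest miR-8485 library lay just under its highest CTR library, and the means were 26.5 ± 1.89 and 29.8 ± 1.34 FPKM (SD, n = 3). The log2 fold change was 0.17 (SE 0.06, 95% confidence interval 0.02 to 0.32), and limma gave an adjusted p of 0.0505, just outside the threshold. Leaving out CTR replicate 3 gave a log2 fold change of 0.23 and a limma adjusted p of 0.0154, and leaving out replicate 2 of miR-8485 gave 0.21 and 0.0449. Leaving out any other single library weakened it, to 0.14 to 0.15, with limma adjusted p of 0.118 to 0.144. Under TPM it was 0.054 (limma adjusted p = 0.521).

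RELA (chr11:65653596-65663094, minus strand), the most common activating subunit, was at 20.5, 20.8 and 22.1 FPKM in CTR and at 20.1, 19.1 and 21.3 FPKM in miR-8485. The groups overlapped, and the log2 fold change was -0.07 (SE 0.06, 95% confidence interval -0.20 to 0.07, limma adjusted p = 0.338). A lincRNA on the opposite strand, AP001362.2, overlaps RELA and held at most 74 fragments in a library. The mean of AP001362.2 was 1.54 FPKM in CTR and 4.42 FPKM in miR-8485. Strand use in the counting was not given in the sources used here, so reads of such a pair cannot be told apart.

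RELB (chr19:45001430-45038198, plus strand), the usual partner of the NFKB2 product, was at 6.16, 5.81 and 6.83 FPKM in CTR and at 7.04, 6.12 and 7.16 FPKM in miR-8485. The groups overlapped here too, with a log2 fold change of 0.11 (SE 0.09, 95% confidence interval -0.09 to 0.31, limma adjusted p = 0.296). Under TPM it was -0.0027, or 0.11 relative to the shift of all tested genes.

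NFKB1 (chr4:102501329-102617302, plus strand), whose product pairs with that of RELA, was at 5.54, 5.12 and 5.30 FPKM in CTR and at 5.86, 5.70 and 5.91 FPKM in miR-8485. All 3 miR-8485 libraries were above all 3 CTR libraries. The difference was small, with means of 5.32 ± 0.213 and 5.82 ± 0.110 FPKM (SD, n = 3). The log2 fold change was 0.13 (SE 0.06, 95% confidence interval -0.0024 to 0.26), and limma gave an adjusted p of 0.0829. Over the 4 subunit genes the log2 fold changes ran from -0.07 to 0.17, and in this fit their intervals reached 0.32 upward and 0.20 downward. Other settings moved the log2 fold change further, to -0.18 for RELA under TPM and to 0.23 for NFKB2 without CTR replicate 3.

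NFKBIA (chr14:35401511-35404749, minus strand), the inhibitor that retains the dimers in the cytoplasm, stood at 16.1, 15.0 and 16.2 FPKM in CTR and at 11.6, 9.76 and 11.9 FPKM in miR-8485. The groups did not overlap, with miR-8485 the lower one. These values rest on 645 to 696 fragments per CTR library and 419 to 540 per miR-8485 library. The mean dropped from 15.8 ± 0.648 to 11.1 ± 1.17 FPKM (SD, n = 3), which is 70.4% of CTR. The log2 fold change was -0.51 (SE 0.08, 95% confidence interval -0.70 to -0.32, limma adjusted p = 0.0013), and it lay between -0.56 and -0.42 when each library was left out in turn.

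Of the pair of ubiquitin-editing genes, TNFAIP3 was downregulated and CYLD did not pass the test. TNFAIP3 (chr6:137867188-137883312, plus strand), an NF-kappaB target whose product shuts the pathway off, was at 1.37, 1.48 and 1.90 FPKM in CTR and at 0.761, 0.733 and 0.863 FPKM in miR-8485. Its groups were well apart, at 125 to 174 fragments per CTR library and 67 to 83 per miR-8485 library. The mean in miR-8485 was 49.6% of that in CTR, with a log2 fold change of -0.92 (SE 0.19, 95% confidence interval -1.36 to -0.47, limma adjusted p = 0.0043), and it was -0.53 with a pseudocount of 1 in place of 0.1. An antisense gene, AL357060.1, overlaps TNFAIP3 and held at most 17 fragments in a library. The mean of AL357060.1 was 0.059 FPKM in CTR and 0.192 FPKM in miR-8485.

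CYLD (chr16:50742050-50801935, plus strand), a deubiquitinase and the only one of the 10 genes with seed matches in its canonical 3′ UTR, was at 1.31, 1.46 and 1.34 FPKM in CTR and at 1.38, 1.35 and 1.54 FPKM in miR-8485. The values of the groups were interleaved, at 307 to 341 fragments per CTR library and 316 to 381 per miR-8485 library. The means were 1.37 ± 0.0752 and 1.42 ± 0.106 FPKM (SD, n = 3), and the log2 fold change was 0.05 (SE 0.13, 95% confidence interval -0.26 to 0.36, limma adjusted p = 0.766). Its sign changed without miR-8485 replicate 3, to -0.0063, and under TPM, to -0.060. The TPM value was 0.054 relative to the shift of all tested genes.

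Of the 3 target genes, CXCL1 and CXCL8 were downregulated, while BIRC3 had lower values that did not pass the test. CXCL1 (chr4:73869393-73871242, plus strand), a chemokine that attracts neutrophils, was at 1.75, 1.75 and 1.32 FPKM in CTR and at 0.773, 0.597 and 0.932 FPKM in miR-8485. All miR-8485 libraries were below all CTR libraries, but the fragments were few, 31 to 41 per CTR library and 14 to 23 per miR-8485 library. The mean in miR-8485 was 47.7% of that in CTR. The log2 fold change was -0.99 (SE 0.22, 95% confidence interval -1.50 to -0.48, limma adjusted p = 0.0059), and it was -0.56 with a pseudocount of 1. CXCL2 and CXCL3, closely similar neighbours of CXCL1 with which reads could be shared, were below the level for testing and are named here after their values were seen. CXCL3 held 15 to 31 fragments per CTR library and 7 to 13 per miR-8485 library, whereas CXCL2 held 0 to 13 and 11 to 13.

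CXCL8 (chr4:73740506-73743716, plus strand), which encodes interleukin-8, a neutrophil chemokine, was at 6.34, 3.87 and 3.33 FPKM in CTR and at 3.43, 2.36 and 2.22 FPKM in miR-8485. CTR replicate 1 was far above the other libraries, and miR-8485 replicate 1 was above CTR replicate 3, so the groups overlapped. The mean dropped from 4.51 ± 1.61 to 2.67 ± 0.662 FPKM (SD, n = 3), with a log2 fold change of -0.71 (SE 0.25, 95% confidence interval -1.30 to -0.12, limma adjusted p = 0.0433). The call rested on single libraries. Without CTR replicate 1 the log2 fold change was -0.44 (limma adjusted p = 0.0924), and it was -0.79 without CTR replicate 2 (limma adjusted p = 0.0586). Leaving out miR-8485 replicate 2 gave -0.64 (limma adjusted p = 0.115), and leaving out replicate 3 of that group gave -0.59 (limma adjusted p = 0.123).

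BIRC3 (chr11:102317450-102339403, plus strand), which encodes an inhibitor of apoptosis and ubiquitin ligase, was at 2.63, 1.91 and 2.09 FPKM in CTR and at 1.77, 1.74 and 1.89 FPKM in miR-8485. Each miR-8485 library was below each CTR library, by a small margin for CTR replicate 2. The log2 fold change was -0.27 (SE 0.13, 95% confidence interval -0.59 to 0.04, limma adjusted p = 0.117), and without CTR replicate 1 it was -0.15 (limma adjusted p = 0.320).

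**Figure D2:**
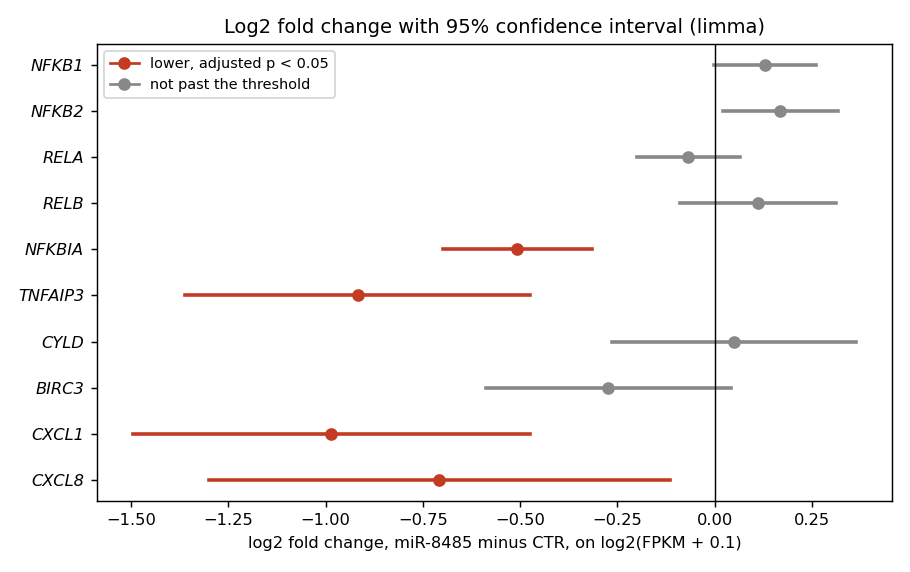
Log2 fold change of miR-8485 against CTR on log2(FPKM + 0.1) for each of the 10 genes, with its 95% confidence interval from limma (3 libraries per group). Red marks the 4 genes called lower at an adjusted p under 0.05. The intervals of NFKBIA, TNFAIP3, CXCL1 and CXCL8 lie below 0, those of NFKB1, RELA, RELB, CYLD and BIRC3 cross 0, and that of NFKB2 lies just above it.

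Levels per gene length can be ordered within a group. In CTR, NFKB2 was highest, followed by RELA and NFKBIA, with no overlap between neighbours. RELB and NFKB1 came next, and CXCL8 spread across both of them, from 3.33 to 6.34 FPKM. BIRC3 followed, and the libraries of CXCL1, TNFAIP3 and CYLD overlapped at the lower end. In miR-8485 the order of the first 3 was the same, while CYLD, at 1.35 to 1.54 FPKM, lay above both TNFAIP3, at 0.733 to 0.863, and CXCL1, at 0.597 to 0.932 FPKM.

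The wider pathway was described by 5 lists with 70 other genes, of which 47 were tested, 23 were below the level for testing, and 3 of those 23 were at 0 in every library (TLR4, CXCL5 and IL1B, named after their values were seen). Of the 47 tested genes, 26 were downregulated (55.3%), 9 were upregulated (19.1%) and 12 did not pass, beside 30.5% lower and 29.1% higher among all tested genes. The lists were chosen with earlier results of these data known, so these shares are a description and not a test. The median log2 fold change of the 47 was -0.27. The libraries of the groups did not overlap in 38 of the 47, beside 66.5% of all tested genes. A total of 17 genes, 14 lower and 3 higher, were past the threshold without overlap and with a log2 fold change of at least 0.5 in size, counting at most 6 per list. All 17 passed the same threshold in every alternative fit that included them. They were picked by this threshold in the same libraries, so their passing is not independent evidence.

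**Figure D3:**
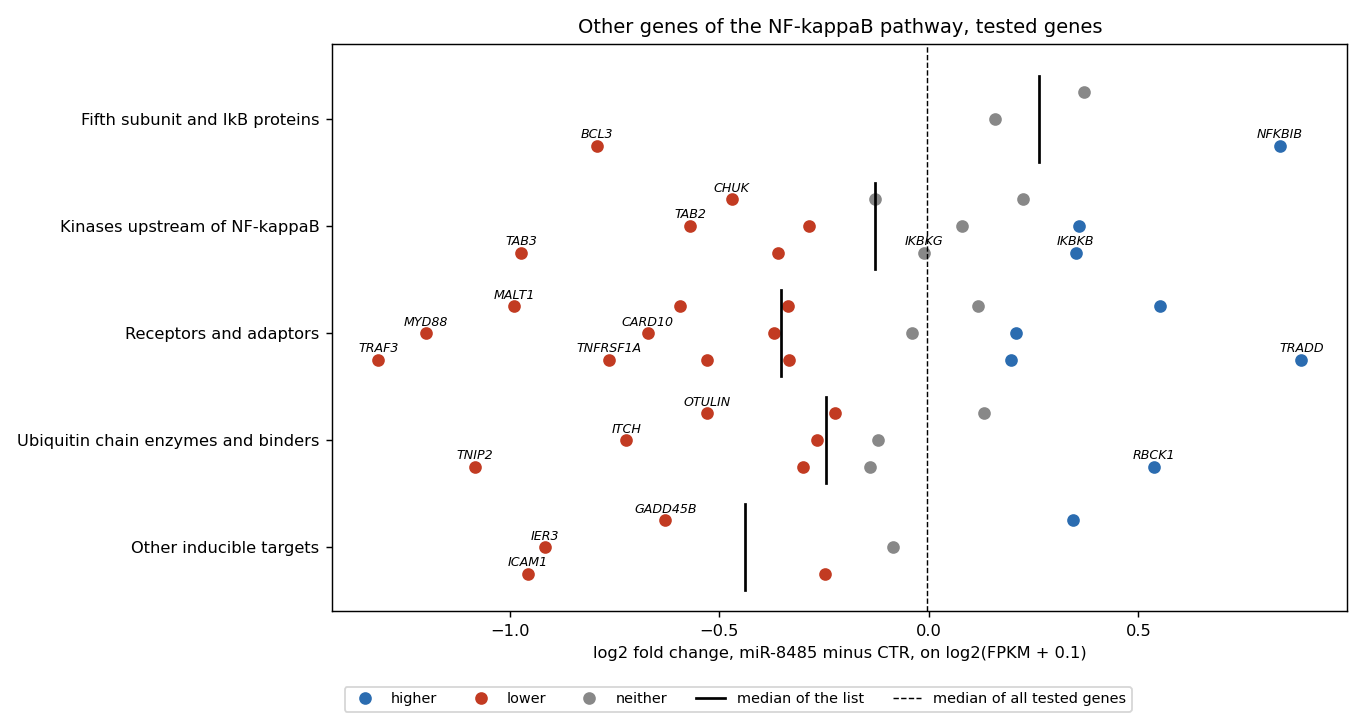
Log2 fold change of miR-8485 against CTR on log2(FPKM + 0.1) for the 47 tested genes of the 5 pathway lists, 1 point per gene, spread vertically only for legibility. Colours give the limma call, black bars the list medians, from -0.44 for other inducible targets to 0.26 for the IkB list, and the dashed line the median of all tested genes (-0.0041).

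Among the receptors and adaptors, 10 of 16 tested genes were downregulated (62.5%) and 4 upregulated (25.0%), with a median log2 fold change of -0.35. Among all tested genes, 30.5% were lower and 29.1% higher. TRAF3, an adaptor that holds back the noncanonical pathway, was at 6.11, 6.30 and 6.46 FPKM in CTR and at 2.45, 2.32 and 2.66 FPKM in miR-8485. Its log2 fold change was -1.31 (SE 0.07, limma adjusted p = 9.6e-06). MYD88, the adaptor of Toll-like and interleukin receptors, dropped from 7.84 to 3.37 FPKM on average (log2 fold change -1.20, limma adjusted p = 2.9e-05). MALT1, a protease and scaffold downstream of antigen and G protein-coupled receptors, had a log2 fold change of -0.99, and CARD10, its partner scaffold in epithelial cells, one of -0.67. TNFRSF1A, the main TNF receptor, dropped from 30.4 to 17.9 FPKM on average (log2 fold change -0.76). TRADD, the adaptor that binds this receptor, went the other way, from 8.87 to 16.6 FPKM (log2 fold change 0.89, limma adjusted p = 1.5e-04).

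Among the kinases and their partners, 5 of 11 tested genes were downregulated and 2 upregulated. The share called in either direction, 63.6%, was near the 59.6% of all tested genes, of which 30.5% were lower and 29.1% higher. TAB3 and TAB2, which bind ubiquitin chains and recruit the kinase encoded by MAP3K7, had log2 fold changes of -0.97 and -0.57. The genes of the IKK complex, named after their values were seen, did not move in 1 direction. CHUK was downregulated from 12.6 to 9.08 FPKM on average (log2 fold change -0.47), IKBKB was upregulated from 2.27 to 2.92 FPKM (log2 fold change 0.35), and IKBKG, the regulatory subunit, was at 1.41 and 1.40 FPKM (log2 fold change -0.01, limma adjusted p = 0.965).

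Ubiquitin chain enzymes and binders were downregulated in 6 of 10 tested genes and upregulated in 1, beside 30.5% and 29.1% of all tested genes. TNIP2, which binds ubiquitin chains and the TNFAIP3 product, dropped from 21.5 to 10.1 FPKM on average (log2 fold change -1.08, limma adjusted p = 2.2e-05). ITCH, a ubiquitin ligase that works with the TNFAIP3 product, had a log2 fold change of -0.72. OTULIN, which removes linear ubiquitin chains, had one of -0.53, whereas RBCK1, a subunit of the complex that builds them, was upregulated by 0.54 on the log2 scale.

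Besides NFKBIA, the IkB proteins and REL gave 4 tested genes out of 6, of which 1 was upregulated and 1 downregulated. These shares, 25.0% each, were near the 29.1% higher and 30.5% lower of all tested genes. NFKBIB, a second classical IkB gene, was at 19.0, 18.0 and 17.7 FPKM in CTR and at 36.3, 32.4 and 29.8 FPKM in miR-8485. All its miR-8485 libraries were above all CTR libraries, with a log2 fold change of 0.84 (SE 0.08, limma adjusted p = 7.3e-05), opposite in sign to that of NFKBIA. BCL3, an atypical nuclear IkB protein and itself an NF-kappaB target, had a log2 fold change of -0.79. REL, the fifth subunit, held only 32 to 40 fragments per CTR library and 12 to 21 per miR-8485 library and was below the level for testing.

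Only 6 of 23 other inducible targets were expressed at a level that allowed testing, with a median log2 fold change of -0.44. Of the 6, 4 were downregulated and 1 upregulated, beside 30.5% lower and 29.1% higher among all tested genes. IER3, an early response gene, was by far the most abundant of the members and pathway genes named here. It was at 418 ± 32.6 FPKM in CTR and 221 ± 7.62 in miR-8485 (SD, n = 3), and its log2 fold change was -0.92 (limma adjusted p = 2.2e-05). ICAM1, a cell adhesion molecule, dropped from 1.80 to 0.881 FPKM on average (log2 fold change -0.96, limma adjusted p = 0.0045). ICAM1 too reached the level for testing only through CTR. GADD45B, a stress response gene, had a log2 fold change of -0.63.

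The seed matches of the 3′ UTRs were set beside these values. In CYLD the 5 runs began at bases 1082, 1961, 2778, 2788 and 4459 of a 3′ UTR of 5427 bases, and the level of CYLD did not pass the test. The 4 downregulated genes held 0 matches in their canonical 3′ UTRs, of 500 bases in NFKBIA, 1993 in TNFAIP3, 772 in CXCL1 and 1252 in CXCL8. When the longest annotated 3′ UTR was read instead, NFKBIA and RELA held 1 match each. Among the 46 tested pathway genes with an annotated 3′ UTR, 17 held a match, of which 14 were downregulated (82.4%) and 1, IKBKB, was upregulated. Of the 29 without a match, 12 were downregulated (41.4%) and 7 upregulated. The 3′ UTRs of the 2 sets differed in length, with medians of 2228 and 733 bases. Among all 10672 tested genes with an annotated 3′ UTR, 44.6% of the 3086 with a match and 29.3% of the 7586 without one were downregulated, with median lengths of 2720 and 877 bases. The part of length in these shares was not tested. The longest runs of 6 of the 14 downregulated pathway genes are shown, with 4 bases on each side and the run in capitals, to set their lengths beside that of CYLD. That of TRAF3 is as short as a match can be, and those of ICAM1 and OTULIN are longer than the longest run in CYLD. The downregulated genes not shown had longest runs of 7 to 11 bases. SPATA2 and TRAF6, which held a match and did not pass, had longest runs of 7 and 9 bases. IKBKB, the upregulated gene with a match, was left out of this reading of run lengths. Whether run length went with the change was not tested.
TRAF3, chr14:102909316-102909330, plus strand: cagaTGTGTGTtccc
MALT1, chr18:58749236-58749250, plus strand: tataTGTGTGTatac
MYD88, chr3:38141303-38141320, plus strand: ctggGTGTGTGTGTatct
TAB3, chrX:30828014-30828029, minus strand: taccGTGTGTGTctgt
ICAM1, chr19:10286354-10286377, plus strand: ccgcGTGTGTGTGTGTGTGTatgt
OTULIN, chr5:14697043-14697067, plus strand: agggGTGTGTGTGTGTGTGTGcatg

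**Figure D4:**
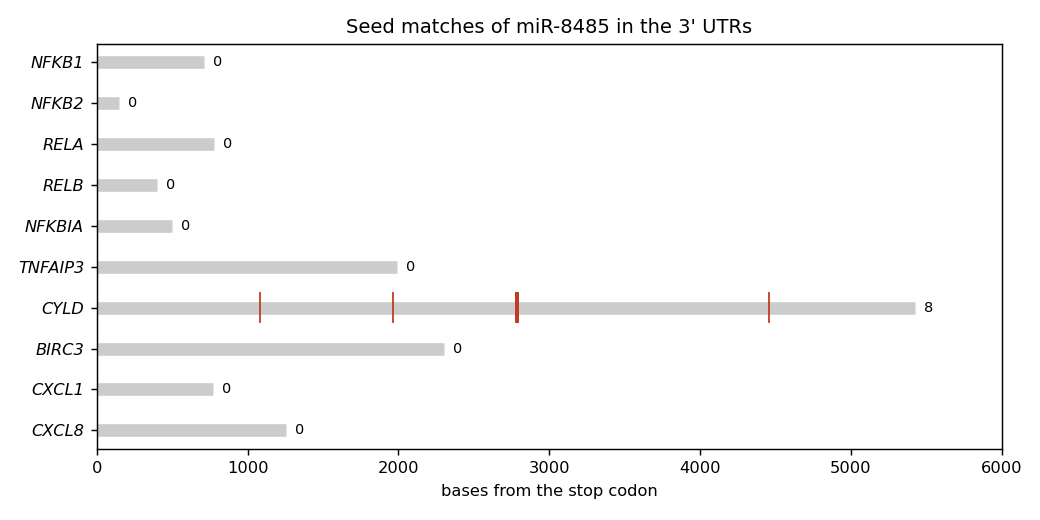
Canonical 3′ UTRs of the 10 genes drawn to scale, in bases from the stop codon (grey), with copies of TGTGTGT as red ticks and their number at the right. CYLD has the longest 3′ UTR, 5427 bases, and 8 copies, overlapping ones included, and the other 9 genes have 0.

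In the promoters, 8 of the 9 genes with a RefSeq promoter held at least 1 match to the kappaB consensus or GGANTTTCC (88.9%), in 10 of their 15 windows, compared with 14.2% of all 27305 genes. The genes were chosen as NF-kappaB genes and targets, and the motifs after the promoters had been seen. The high share is therefore a description and not a test. These genes also had more windows for their number, 15 for 9 genes beside 35116 for 27305. Over all 35116 windows, 11.3% held the consensus and 1.64% held GGANTTTCC. The matches in the downregulated genes began 91 bases before the start in CXCL8, 79 bases before it in CXCL1, 67 and 55 bases before it in TNFAIP3, and 242 and 81 bases before it in NFKBIA. Matches were also found for NFKB1, NFKB2, BIRC3 and CYLD, which did not pass the test of expression. The RELA windows held none, which says only that these letters are not in those windows. A match is a run of letters and not a measurement of binding, which was not assayed here.

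**Figure D5:**
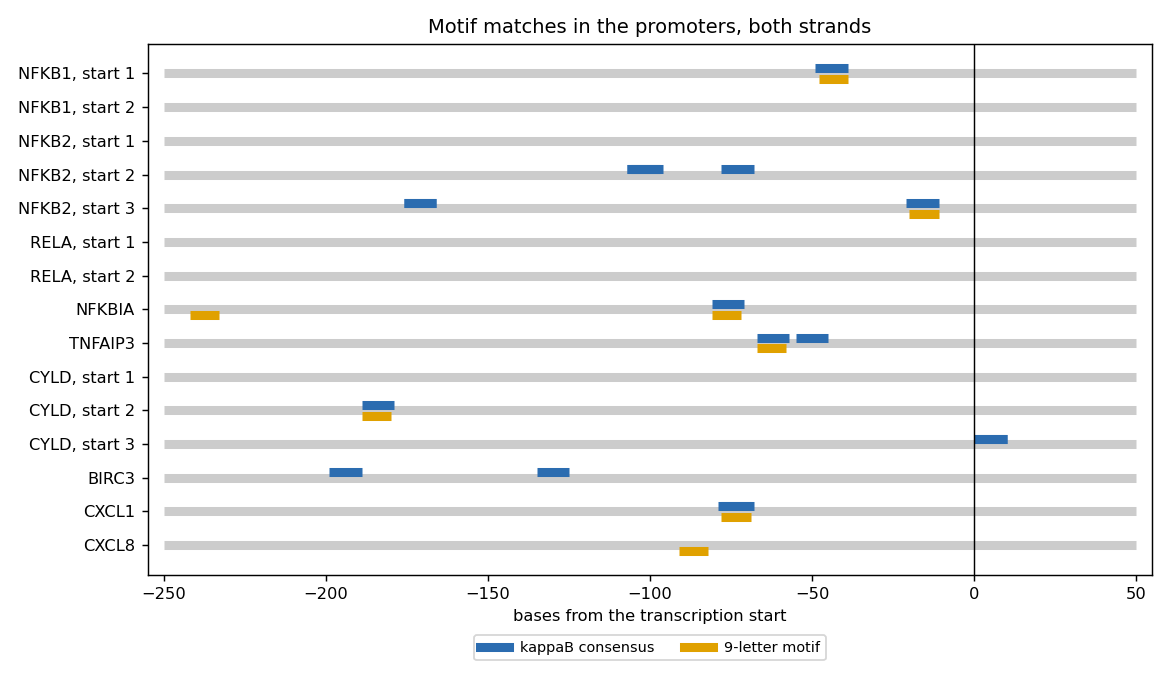
Positions of matches, in bases from the transcription start, in the 15 RefSeq promoter windows of 9 genes, with numbered starts where a gene has more than 1. Blue bars are matches to the kappaB consensus and orange bars matches to the 9-letter motif GGANTTTCC, on either strand. Most matches lie before the start, and 5 windows, those of RELA among them, hold none.

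The genes most similar in pattern were looked up among 56 candidates, the other tested members and pathway genes, by Pearson's r of log2 values over the 6 libraries. For CYLD these were MAP3K14 (r = 0.79), TRAF2 (r = 0.53) and RNF31 (r = 0.53). For CXCL1, taken for the size of its log2 fold change in the fit reported here, they were BCL10 (r = 0.99), CD40 (r = 0.98) and TNIP2 (r = 0.95). The 6 libraries form 2 groups, so genes that differ between the groups share that difference in r, and the values are a description only.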

How the data were processed

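RNA-seq libraries were grouped by their labels, 3 CTR and 3 miR-8485, and 0 columns were left without a sample. The authors used fastp for trimming and HISAT2 2.0.5 for mapping to hg38, counted fragments per gene with featureCounts 1.5.0-p3 and tested the counts with DESeq2. The table deposited by the authors and used here holds FPKM, with no further scaling between libraries, so a gene's value also depends on the other genes of its library. Fragments were recovered from the FPKM steps. The spread between replicates was above counting error, so precision depends on both.

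Genes were tested with limma 3.58.1 under R 4.3.3 on log2(FPKM + 0.1), letting the variance follow a trend with level. Because of the added 0.1, fold changes of low genes are understated. The 10 genes and the pathway lists were chosen with earlier results of these data known, and so were the tests. Named pathway genes were past the threshold, did not overlap between groups and changed by at least 0.5, at most 6 per list. SOD2 had more than 1 row, and the better expressed one was used. Alternatives were another pseudocount, filter, scaling, threshold or variance model, voom, a replicate block, each library left out, and, added after seeing the data, removal of the trend against gene length. 3′ UTRs came from GENCODE release 44 and promoters from RefSeq. Figures were drawn with matplotlib 3.10.9.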

Additional observations from a re-analysis of the deposited data

How the results depend on the processing

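The calls for NFKBIA, TNFAIP3 and CXCL1 kept their direction and passed in every alternative that included them. With a pseudocount of 1, the log2 fold changes of TNFAIP3 and CXCL1 shrank to -0.53 and -0.56, and TNFAIP3 was ahead of CXCL1 in size without CTR replicate 1, CTR replicate 2 or miR-8485 replicate 2. CXCL8 lost its call in 7 of 16 alternatives, with limma adjusted p from 0.0014 (replicate block) to 0.131 (no filter). NFKB2 passed in 8 of 17, with adjusted p from 0.0154 to 0.521. BIRC3 passed with voom (log2 fold change -0.31, adjusted p = 0.0295), NFKB1 with the gene length trend removed (0.19, limma adjusted p = 0.0260) and RELA under TPM (-0.18, limma adjusted p = 0.0450). The log2 fold change turned to -0.0027 for RELB and -0.060 for CYLD under TPM, and for CYLD ran from -0.0063 (without miR-8485 replicate 3) to 0.092 with 1 library left out. Relative to the TPM shift of all tested genes, -0.11, the values were 0.11 for RELB, 0.054 for CYLD and -0.068 for RELA. These are near those of the reported fit. Beyond this shift, the cause of the differences was not tested. With a filter on a mean of at least 5 FPKM, 4720 of 6878 genes were called instead of 7362, because fewer genes were tested. Of the members, 5 were left and 2 of them were called instead of 4 of 10, as TNFAIP3, CXCL1 and CXCL8 dropped out, NFKBIA was called lower and NFKB2 was newly called higher (limma adjusted p = 0.0366). With 1 library left out, 6560 to 7224 genes, 3 to 5 members and 32 to 34 pathway genes were called. No pairing by replicate number was seen over all tested genes, where the deviations of same-numbered libraries correlated at 0.067, 0.033 and -0.064. With 3 libraries per group this cannot exclude a pairing. With the replicate number as a block, 7388 genes, 33 pathway genes and 5 members were called, 1 higher and 4 lower. The SE of CXCL8 was then 0.09 instead of 0.25, while that of CXCL1 was 0.25 instead of 0.22.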
